A study of Mus musculus with 847 samples.

Results

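Oxidative phosphorylation is carried out by 5 protein complexes of the inner mitochondrial membrane, and most of their subunits are encoded in the nucleus. The members here are the genes whose symbols begin with Nduf, Uqcr, Atp5, Cox4, Cox5, Cox6, Cox7 or Cox8, together with Sdha, Sdhb, Sdhc and Sdhd, chosen by symbol alone and not by any measured value. The rule found 93 genes of the 21076 in the count table. They fall into 36 genes of complex I, 4 of complex II, 8 of complex III, 18 of complex IV and 16 of complex V, and the remaining 11 are assembly factors and other genes that share a name stem (such as the Ndufaf genes, Cox7a2l and Ndufa4l2). The table gave no read to Cox8c in 843 libraries and a read in only 4, so 92 members at most could be tested.

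The study is an age series of brain regions of C57BL/6JN mice, a wild-type inbred strain, with no treatment. Bulk RNA was sequenced from 15 regions of 59 mice (25 females and 34 males): caudate putamen, cerebellum, choroid plexus, corpus callosum, entorhinal cortex, anterior and posterior hippocampus, hypothalamus, medulla, motor cortex, olfactory bulb, pons, subventricular zone, thalamus and visual cortex. Both sexes were taken at 3, 12, 15 and 18 months (5 of each) and at 21 months (5 females and 6 males). The oldest ages hold males alone, 5 at 26 months and 3 at 28 months, so that at these ages the female brain was not measured. A region has 51 to 59 libraries, and a group of 1 region, sex and age has 2 to 6.

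Library totals ran from 481444 to 26756735 counts with a median of 6716032, and 10 libraries were under 1e6. In 17 libraries the profile over 11872 expressed genes, members left out, correlated better with the median of another region than with that of its own label. Of these, 8 were labelled posterior hippocampus and resembled anterior hippocampus, 4 were labelled caudate putamen and resembled corpus callosum, and the entorhinal library of mouse 52 (the deepest of all) had r = 0.841 with its own region and 0.961 with medulla. The other 4 were 1 library each of choroid plexus, corpus callosum, anterior hippocampus and pons. The libraries labelled choroid plexus carried neuron markers (8 genes, 6870 counts per 1e6 library counts, CPM, summed at 3 months) beside choroid plexus markers (8 genes, 4730 CPM). Results that rest on these regions are given with and without them where the count moved. Reads shared with near-identical copies, as among Atp5g1, Atp5g2 and Atp5g3, may be split between genes in an unknown way. In bulk tissue, fewer cells of a type and less RNA per cell cannot be told apart.

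Complex I takes electrons from NADH, complex II (succinate dehydrogenase) takes them from succinate and is also an enzyme of the citric acid cycle, complex III passes them from ubiquinone to cytochrome c, and complex IV (cytochrome c oxidase) hands them to oxygen. Complexes I, III and IV pump protons, and complex V (ATP synthase) lets them flow back to make ATP. In brain most of this ATP pays for ion pumping in neurons. Complexes I, III, IV and V each hold subunits made from mitochondrial DNA (in complex V in its membrane part), whereas complex II is nuclear throughout. Several complex IV subunits exist as a ubiquitous isoform and a tissue-restricted one (for example Cox6a1 and Cox6a2, the latter known from heart and skeletal muscle).

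Known regulators of these genes are the factors NRF1, members of the ETS family, YY1 and SP1, and their sequence words were searched in RefSeq promoters (GRCm38.p6, 250 bases before to 50 bases after the start), which 76 of the 93 members have. The NRF1 word GCGCATGCG, searched on both strands, was in a promoter of 10 of these genes (13.2%), against 1.95% of all 27025 genes with a promoter. The YY1 word AAGATGGCG was in 8 members (10.5%), against 1.64% of all such genes. The 2 words share no overlap in the windows printed. Where the NRF1 word and its reverse complement are both matched at the same site, they overlap by 8 bases. Among the members with a promoter, the NRF1 word was in 2 of 32 of complex I, 0 of 3 of complex II, 2 of 5 of complex III, 1 of 13 of complex IV, 3 of 14 of complex V and 2 of 9 of the assembly group. The YY1 word was in 5 of 32 of complex I, 2 of 14 of complex V and 1 of 9 of the assembly group. In 7 of the 8 genes it lay after the start. The word holds the letters ATG, and whether these are translation starts was not tested. The ETS word ACTTCCG was in 12 members (15.8%, against 7.20%), the SP1 word GGGCGGG in 28 (36.8%, against 27.9%) and CCAAT in 34 (44.7%, against 41.1%). A match is a run of letters and not a binding site. Windows of 30 bases are shown for some of the genes with the 2 rarest words, with the word in capitals and the gene's own strand given. None is of complex II or III. The first 5 hold the NRF1 word.
Atp5g2 (complex V, chr15:102671071-102671100, minus strand): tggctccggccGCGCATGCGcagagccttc
Atp5k (complex V, chr5:108434431-108434460, minus strand): ctttcactgcgGCGCATGCGcctttctggc
Cox6a1 (complex IV, chr5:115349102-115349131, minus strand): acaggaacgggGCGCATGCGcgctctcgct
Ndufa11 (complex I, chr17:56717691-56717720, plus strand): acctgcactgcGCGCATGCGcgcacgcctt
Ndufaf4 (complex I assembly, chr4:24897959-24897988, plus strand): cccagatgtctGCGCATGCGcctgtgcgga
The next 7 hold the YY1 word.
Atp5j2 (complex V, chr5:145191500-145191529, minus strand): accaggacttcAAGATGGCGtcactcggtg
Ndufa9 (complex I, chr6:126849097-126849126, minus strand): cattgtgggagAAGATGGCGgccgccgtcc
Ndufaf8 (complex I assembly, chr11:120098933-120098962, plus strand): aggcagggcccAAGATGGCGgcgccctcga
Ndufc1 (complex I, chr3:51408915-51408944, minus strand): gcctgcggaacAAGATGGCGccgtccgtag
Ndufs4 (complex I, chr13:114388045-114388074, minus strand): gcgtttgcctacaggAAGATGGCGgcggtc
Ndufs6 (complex I, chr13:73328433-73328462, minus strand): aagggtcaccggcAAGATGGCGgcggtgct
Ndufs7 (complex I, chr10:80249462-80249491, plus strand): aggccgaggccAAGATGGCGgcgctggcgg

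The first comparison asked how the level of the members differs between regions in young adult brain, at 3 months. Hindbrain stood highest. In medulla, 85 of 92 members were higher than the mean of the other 14 regions and 1 was lower (edgeR quasi-likelihood test with mouse as a block, Benjamini-Hochberg adjusted p below 0.05 over all 14884 genes tested), where 39.1% of all genes were higher. In pons 79 were higher and 1 lower, against 38.4% of all genes higher. The median log2 difference of the members was 0.56 in medulla and 0.40 in pons.

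The lowest levels were in forebrain. In anterior hippocampus 77 members were lower and 1 higher (31.1% of all genes lower, median log2 difference -0.21). In entorhinal cortex 70 were lower and 2 higher (31.3% of all genes lower, median -0.21). In olfactory bulb 62 were lower and 5 higher (35.0% of all genes lower, median -0.19). The posterior hippocampus (63 lower, 1 higher, 27.3% of all genes lower), visual cortex (64 lower, 2 higher, 34.5% of all genes lower), subventricular zone (60 lower, 7 higher, 27.7% of all genes lower) and hypothalamus (53 lower, 7 higher, 31.2% of all genes lower) leaned the same way. Members split in cerebellum (38 higher and 21 lower, where 39.8% of all genes were higher and 38.8% lower) and thalamus (39 higher and 13 lower, where 32.5% were higher and 31.4% lower).

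**Figure D1:**
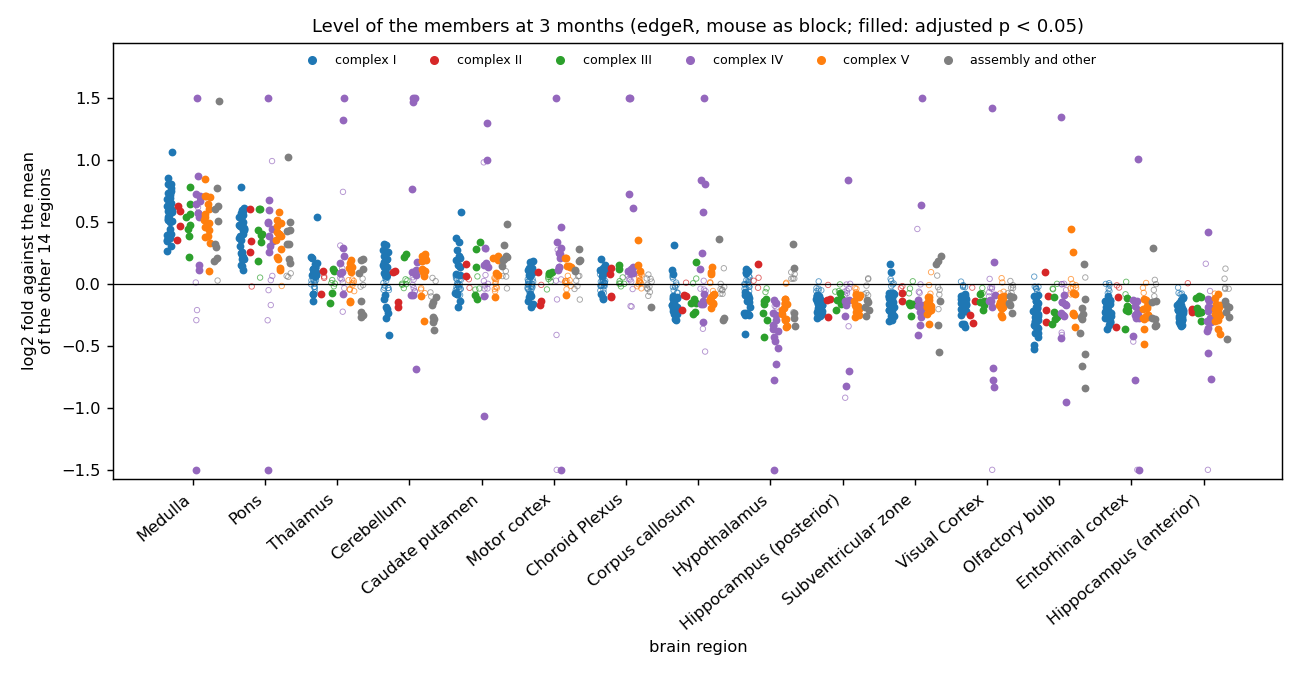
Level of each member in each of 15 regions at 3 months, as the log2 fold change against the mean of the other 14 regions (vertical axis, values beyond 1.5 drawn at the edge). Each point is 1 member, coloured by complex and filled where the edgeR adjusted p is below 0.05. Medulla (85 of 92 higher) and pons (79 of 92 higher) stand above 0, and anterior hippocampus (77 lower) below it.

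All 5 complexes shared the hindbrain pattern. In medulla 36 of 36 genes of complex I were higher (median log2 difference 0.59), 4 of 4 of complex II (0.53), 8 of 8 of complex III (0.51), 12 of 17 of complex IV (0.58) and 16 of 16 of complex V (0.53). The assembly group was nearer to the other regions, with 9 of 11 higher and a median of 0.32. In pons the medians were 0.45 for complex I, 0.30 for complex II, 0.40 for complex III, 0.35 for complex IV and 0.39 for complex V. Of the 86 members with a mean of at least 5 CPM, 63 had their highest region mean in medulla and 7 in pons.

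Other mitochondrial lists were high in medulla too. All 17 genes of the citric acid cycle list were higher there, as were 13 of 13 mitochondrially encoded genes, 69 of 78 genes of the mitochondrial ribosome and 26 of 34 assembly factors. Outside the respiratory chain, 57 of 76 genes of the cytosolic ribosome and 13 of 16 of glycolysis were higher. Of 12 regulators of mitochondrial genes, 5 were higher and 5 lower. Cell type markers differed between these regions. The summed level of the 8 neuron markers averaged 12524 CPM in medulla, 9646 in pons and 4620 in caudate putamen, but also 10420 in motor cortex and 9201 in visual cortex, where 64 members were lower. That of the 6 oligodendrocyte markers averaged 22847 CPM in medulla, 24069 in pons and 1169 in entorhinal cortex, but also 20089 in corpus callosum, where 48 members were lower and 14 higher. Over all regions together, 32.5% of all gene and region pairs were lower and 33.2% higher. The share of all genes in corpus callosum alone is not given here. The part of cell makeup in the regional levels was not tested.

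Among complex I subunits, Ndufb8 (chromosome 19, 44548572 to 44555440, GRCm38), an accessory subunit, had one of the widest ranges. Its 10 medulla libraries read from 454 to 594 CPM with a median of 535, and its 10 olfactory bulb libraries from 199 to 232 with a median of 215, with no overlap. Against the other regions Ndufb8 was higher by 1.07 on the log2 scale in medulla (SE 0.035, edgeR adjusted p = 1.22e-58) and lower in olfactory bulb (log2 difference -0.53, SE 0.041). Ndufv2, which carries an iron-sulfur cluster of the NADH-oxidising module, read 401 to 480 CPM in medulla (median 453) and 215 to 245 in olfactory bulb (median 237). The medulla libraries of Ndufv2 were thus all above those of olfactory bulb. Ndufb6, another accessory subunit, read 194 to 245 CPM in medulla (median 224) and 101 to 128 in olfactory bulb (median 113).

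For complex II, Sdha, the flavoprotein that oxidises succinate, was close to equal in the hindbrain regions, with 933 to 1089 CPM in pons (median 1003) and 923 to 1026 in medulla (median 997). In visual cortex Sdha was at 553 to 655 CPM (median 591), below every hindbrain library. Sdhb, the iron-sulfur subunit, read 271 to 349 CPM in medulla and 172 to 212 in anterior hippocampus. The membrane anchors spanned less. Sdhc read 142 to 181 CPM in medulla and 94.8 to 108 in visual cortex, and Sdhd 101 to 158 and 83.9 to 97.0 in the same regions. None of these pairs of groups overlapped.

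For complex III, Uqcrh, the hinge protein, read 242 to 317 CPM in medulla (median 271) and 126 to 165 in entorhinal cortex (median 146). It was 0.78 higher on the log2 scale in medulla than in the other regions (SE 0.034). Uqcrc1, a core protein, was highest in pons with a median of 621 CPM and lowest in corpus callosum with 328 to 388. Uqcr10 read 200 to 234 CPM in medulla and 130 to 153 in anterior hippocampus. For each of these genes the libraries of the highest region lay above all libraries of the lowest.

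For complex V, Atp5mpl read 218 to 262 CPM in medulla and 105 to 140 in entorhinal cortex, and was 0.85 higher on the log2 scale in medulla (SE 0.042). Atp5j2 read 265 to 338 CPM in medulla and 140 to 178 in anterior hippocampus. The c-ring of the ATP synthase is made from 3 genes that encode the same mature protein, and their regional order differed. Atp5g1 was highest in medulla (268 to 323 CPM, against 160 to 180 in olfactory bulb) and Atp5g3 in pons (326 to 393, against 188 to 224 in anterior hippocampus). Atp5g2 was highest in olfactory bulb, where its libraries (68.2 to 87.3 CPM, median 77.1) lay above every library of the next region. The log2 difference of Atp5g2 from the other regions was 0.45 in olfactory bulb (SE 0.038) and 0.11 in medulla (SE 0.039).

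Among the assembly genes, Ndufaf2, a chaperone of complex I, spanned the most. It read 52.6 to 65.6 CPM in medulla (median 58.7) and 11.8 to 17.7 in olfactory bulb (median 15.3), log2 differences of 1.48 (SE 0.048) and -0.84 (SE 0.067) from the other regions. Ndufaf5, another complex I assembly factor, read 46.9 to 66.6 CPM in medulla and 25.3 to 29.8 in corpus callosum. Ndufaf6 read 17.1 to 23.2 CPM in medulla and 7.18 to 12.2 in olfactory bulb. Cox7a2l, counted here with this group, read 176 to 240 CPM in medulla and 105 to 131 in cerebellum. The gene of Ndufaf2 overlaps Smim15, and without strand their shared reads cannot be told apart.

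Complex IV was the least uniform, because its isoforms differed from one another. The ubiquitous subunits had their own orders. Cox5a, which is present in all tissues, read 483 to 587 CPM in medulla (median 529) and 240 to 270 in entorhinal cortex (median 249). Cox6a1, by contrast, was highest in motor cortex (314 to 378 CPM, median 355), above thalamus (276 to 368, median 321, with overlap) and medulla (265 to 303, median 281). Cox8a was also highest in motor cortex (511 to 652 CPM). Cox4i1 read 993 to 1289 CPM in medulla. The lowest region of Cox6a1, Cox8a and Cox4i1 was hypothalamus, with medians of 182, 364 and 628 CPM. In hypothalamus 14 of 17 genes of complex IV were lower than in the other regions, with a median log2 difference of -0.34. The log2 difference of Cox6a1 there was -0.65 (SE 0.045).

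Cox6a2 (chromosome 7, 128205435 to 128206387, minus strand, GRCm38), the muscle-type partner of Cox6a1, was highest in thalamus. Its 10 thalamus libraries at 3 months read from 32.9 to 87.6 CPM with a median of 58.0, above every library of the second region. The cortices followed at a distance, with 8.19 to 15.4 CPM in motor cortex (median 12.0) and 8.54 to 14.2 in visual cortex (median 11.2), whose ranges overlap. In medulla the gene was near 0, with 4 of 10 libraries at 0, a median of 0.0937 CPM and a highest value of 0.687. In pons it read 0 to 1.02 CPM (median 0.220). The log2 difference from the other regions was 3.97 in thalamus (SE 0.096, edgeR adjusted p = 2.5e-71), and the fitted value for medulla (-5.32) depends on the prior count, since libraries there are at 0. The 7 muscle markers summed to 17.7 CPM in thalamus and 49.7 in pons at 3 months. The part of cell makeup in the level of Cox6a2 was not tested. Cox6a2 overlaps Itgad in the annotation.

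Other restricted isoforms had their highest levels in other regions. Cox8b (chromosome 7, 140898945 to 140900446, minus strand, GRCm38), the heart-type form of subunit 8, read 7.00 to 23.4 CPM in choroid plexus (median 14.8), and the medians in corpus callosum and subventricular zone were 0.923 and 0.619, although single libraries there reached 30.3 and 17.7. Cox7a1, a muscle-type form, read 5.49 to 12.3 CPM in medulla (median 8.83), 6.52 to 10.8 in pons (median 7.94) and 0 to 1.69 in entorhinal cortex. Cox6b2, known from testis, read 3.65 to 6.28 CPM in cerebellum and 1.85 to 8.38 in choroid plexus, which overlap, and 0 to 0.896 in motor cortex. Cox4i2, the form that responds to low oxygen, read 3.16 to 6.92 CPM in caudate putamen and 0.676 to 1.83 in entorhinal cortex. Cox7b2 read 0.825 to 4.18 CPM in cerebellum, with a mean of 2.19 there and a close 2.04 in thalamus. Ndufa4l2, a relative of the complex IV subunit Ndufa4, was highest in pons at 2.72 to 4.63 CPM. Its mean was 3.43 CPM in pons and 3.10 in caudate putamen. The call of Ndufa4l2 in pons was lost with 12-month mice in place of 3-month mice.

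**Figure D2:**
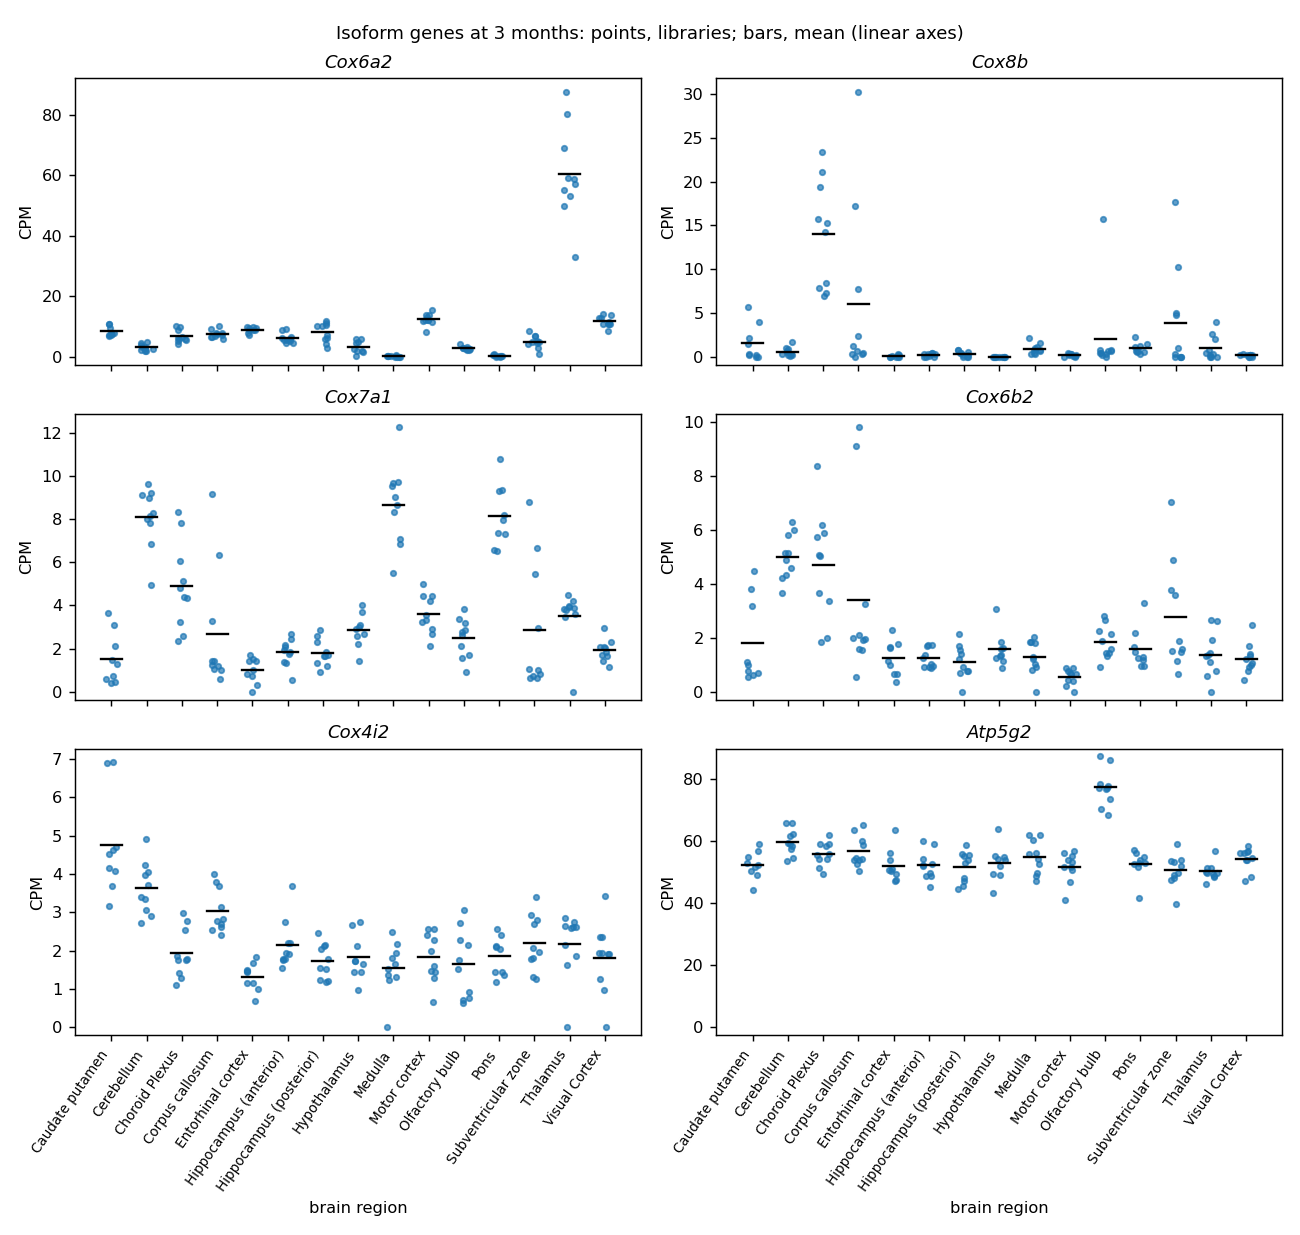
CPM (counts per 1e6 library counts) of Cox6a2, Cox8b, Cox7a1, Cox6b2, Cox4i2 and Atp5g2 in each of 15 regions at 3 months. Each point is a library and each bar the mean. The thalamus libraries of Cox6a2 lie between 32.9 and 87.6, the choroid plexus libraries of Cox8b between 7.00 and 23.4, and the olfactory bulb libraries of Atp5g2 between 68.2 and 87.3.

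Genes that varied with these isoforms within regions were named by the Pearson correlation of log2 CPM, less each region's mean, over all libraries, as a description of libraries that share mice and dissections. For Cox8b the nearest were Slc4a5 (0.85), Tmem72 and Kcne2 (0.82 each), Aqp1 (0.78) and Folr1 (0.77), genes known from choroid plexus epithelium. For Ndufa4l2 they were Flt1 (0.40), Esam (0.39) and Cldn5 (0.38), known from blood vessels. For Cox7a1 they were Stk39 (0.63) and Enpp2 (0.62). For Cox6a2 no gene came near, the highest being Kcnj9 (0.37), Stmn1 (0.35) and Cplx3 (0.34).

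Levels of different genes can be set side by side only per length. As CPM per kilobase of the principal transcript at 3 months, tissue-restricted isoforms left out, the median member was at 481 in complex IV, 328 in complex V, 281 in complex III, 163 in complex I, 133 in complex II and 28.2 in the assembly group. The highest single values were Cox4i1 (985 per kilobase), Atp5b (920), Cox8a (863) and Ndufa4 (654). The members together took 1.28% to 3.60% of a library's counts, with a median of 1.94%.

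The next comparison asked which members change with age within a region. Each slope is a change in log2 CPM per month over all ages with sex in the model. Over the 15 regions there were 1370 pairs of a member and a region, and 32 rose and 45 fell (edgeR quasi-likelihood test, adjusted p below 0.05), against 5.87% and 4.71% of all gene and region pairs. The pairs belonged to 52 genes. By complex, complex I had 13 rising and 12 falling pairs, complex II 2 and 1, complex III 3 and 9, complex IV 6 and 6, complex V 5 and 10, and the assembly group 3 and 7. Most calls lay in caudate putamen and olfactory bulb, which moved in opposite directions. Fewer members passed in pons, medulla and hypothalamus, although their median slopes were -0.0044, -0.0043 and -0.0038 per month. In visual cortex and thalamus the medians were 0.0028 and 0.00061.

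In caudate putamen, the input nucleus of the basal ganglia, 26 of 91 members fell and 1 rose, where 6.11% of all genes fell. The median slope of the members was -0.0038 per month, against -0.00018 for all genes tested. Falling genes came from every complex, with 6 of 36 of complex I, 1 of 4 of complex II (Sdhc), 4 of 8 of complex III, 5 of 16 of complex IV, 7 of 16 of complex V and 3 of 11 of the assembly group. The only riser was Cox7a2l, with a slope of 0.0053.

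Cox7a2 (chromosome 9, 79755361 to 79759878, GRCm38), the ubiquitous form of complex IV subunit 7a, read 198 to 236 CPM in the 9 caudate libraries at 3 months (215 ± 12.1, SD). At 21 months it read 159 to 227 (192 ± 16.6, n = 11), and at 26 months its mean was 188 ± 11.3 (n = 5). The later groups sat lower but overlapped the youngest. The slope of Cox7a2 was -0.0084 (SE 0.0018, adjusted p = 0.00069). Atp5d, the delta subunit of the ATP synthase central stalk, read 233 to 302 CPM at 3 months (265 ± 19.4), averaged 240 ± 13.7 at 21 months and read 214 to 238 at 28 months (229 ± 12.8, n = 3), with a slope of -0.0078 (SE 0.0016, adjusted p = 0.00041). Cox5a read 274 to 320 CPM at 3 months (296 ± 12.8) and 251 to 290 at 21 months (270 ± 11.7). These 3 genes were called in caudate putamen in all 25 alternatives counted. Among these, leaving out the entorhinal library of mouse 52 changed nothing in caudate putamen. Ndufaf5 had the steepest slope of those with a mean of at least 5 CPM, -0.0129 (SE 0.0028, adjusted p = 0.000745). It read 25.2 to 35.0 CPM at 3 months and 16.5 to 26.2 at 26 months. Cox7c (-0.0088), Ndufa1 (-0.0085), Cox7b (-0.0083), Uqcr11 (-0.0081), Atp5e (-0.0080) and Atp5mpl (-0.0080) followed, all small subunits. At 21 months alone, 17 members were lower than at 3 months by edgeR and 22 by DESeq2, and none was higher by either, where 1.85% of all genes were lower.

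Other mitochondrial lists leaned down in caudate putamen as well. Of the 13 mitochondrially encoded genes none passed by edgeR or by DESeq2 (3 at an unadjusted p below 0.05 by each), and their median slope was -0.0043. Of the citric acid cycle list 5 of 17 fell and 1 rose, of the mitochondrial ribosome 11 of 78 fell and none rose, of the mitochondrial membrane list 6 of 13 fell, and of the assembly factors 7 of 34 fell. In the cytosolic ribosome 16 of 76 rose and none fell. The summed oligodendrocyte markers differed with age there, from 12128 CPM at 3 months to 12760 at 21 months and 18437 at 26 months, while the neuron markers stood at 4620, 4512 and 4623. The choroid plexus list summed to 815 ± 1187 CPM at 3 months and 324 at 21 months. The oligodendrocyte part in the slopes was not tested, and with the choroid plexus list as a covariate 32 members fell. Without the 4 caudate libraries closest to corpus callosum 17 fell, Cox7a2, Atp5d and Cox5a among them. With males alone 7 members fell, and with the mean of the cytosolic ribosomal protein genes as a covariate 45 fell.

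In olfactory bulb, which receives new neurons through life, 23 of 90 members rose and 2 fell, where 7.31% of all genes rose. The median slope of the members was 0.0026 per month, against -0.00033 for all genes tested. The rise took in 10 of 36 genes of complex I, 2 of 4 of complex II, 2 of 8 of complex III, 4 of 15 of complex IV, 4 of 16 of complex V and 1 of the assembly group.

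Ndufb9 (chromosome 15, 58933756 to 58939488, GRCm38), an accessory subunit of complex I, read 234 to 261 CPM at 3 months in olfactory bulb (248 ± 7.91, n = 10) and 263 to 292 at 18 months (277 ± 10.9). These groups did not overlap, and the means at 26 and 28 months were 281 and 271. The slope of Ndufb9 was 0.0075 (SE 0.0014, adjusted p = 9.1e-05). Both catalytic subunits of complex II rose in olfactory bulb, Sdhb by 0.0052 per month (adjusted p = 0.000355) and Sdha by 0.0043 (adjusted p = 0.00662). Sdhb averaged 218 ± 9.72 CPM at 3 months and 233 ± 5.30 at 21 months, and Sdha 607 ± 29.7 at 3 months and 648 ± 4.28 at 26 months. The membrane anchors Sdhc and Sdhd did not pass, with slopes of -0.00052 and 0.0010. Uqcrc1 rose from 389 ± 18.8 CPM to 416 ± 15.0 at 21 months (slope 0.0049, adjusted p = 0.000407), and Atp5c1, the gamma subunit of the central stalk, had a slope of 0.0057 (adjusted p = 0.000897). Ndufb4 (0.0081), Uqcrb (0.0074), Ndufv2 (0.0067) and Ndufs1 (0.0063) rose as well. Ndufb9, Sdha, Sdhb, Uqcrc1, Atp5c1 and Ndufs1 were called in olfactory bulb in all 25 alternatives. Those without the entorhinal library of mouse 52 and without libraries closest to another region left olfactory bulb unchanged. The fallers were Cox6a2 (slope -0.0239, adjusted p = 0.034, from 2.74 ± 0.554 CPM at 3 months to 1.64 ± 0.492 at 21 months) and Ndufaf7 (-0.0052). DESeq2 called neither, with adjusted p of 0.0674 and 0.0612, and the call of Ndufaf7 was lost in 9 of 25 alternatives. At 21 months alone 15 members were higher than at 3 months and 1 lower, where 5.45% of all genes were higher.

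Cox7c, Cox7b, Ndufa1, Uqcrc1 and Atp5f1 fell in caudate putamen and rose in olfactory bulb, and Cox7a2l rose in both. Of these, only Cox7a2l was called when slopes were tested between regions (limma-voom F test, given below). The caudate call of Uqcrc1 was lost in 9 of 25 alternatives, and the olfactory bulb call of Cox7b in 6. With the ribosomal covariate, Cox7c, Cox7b and Ndufa1 were not called in olfactory bulb (edgeR adjusted p of 0.51 to 0.59). Beside the members in olfactory bulb, 36 of 76 genes of the cytosolic ribosome rose and none fell, and 1 of 13 mitochondrially encoded genes, 1 of 17 of the citric acid cycle and 4 of 78 of the mitochondrial ribosome rose. The neuron markers summed to 5606 CPM at 3 months and 6189 at 21 months, and astrocyte markers to 2001 and 1831. Their part in the rise was not tested. With males alone 8 members rose in olfactory bulb, and with the cytosolic ribosomal proteins as covariate 9 rose.

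**Figure D3:**
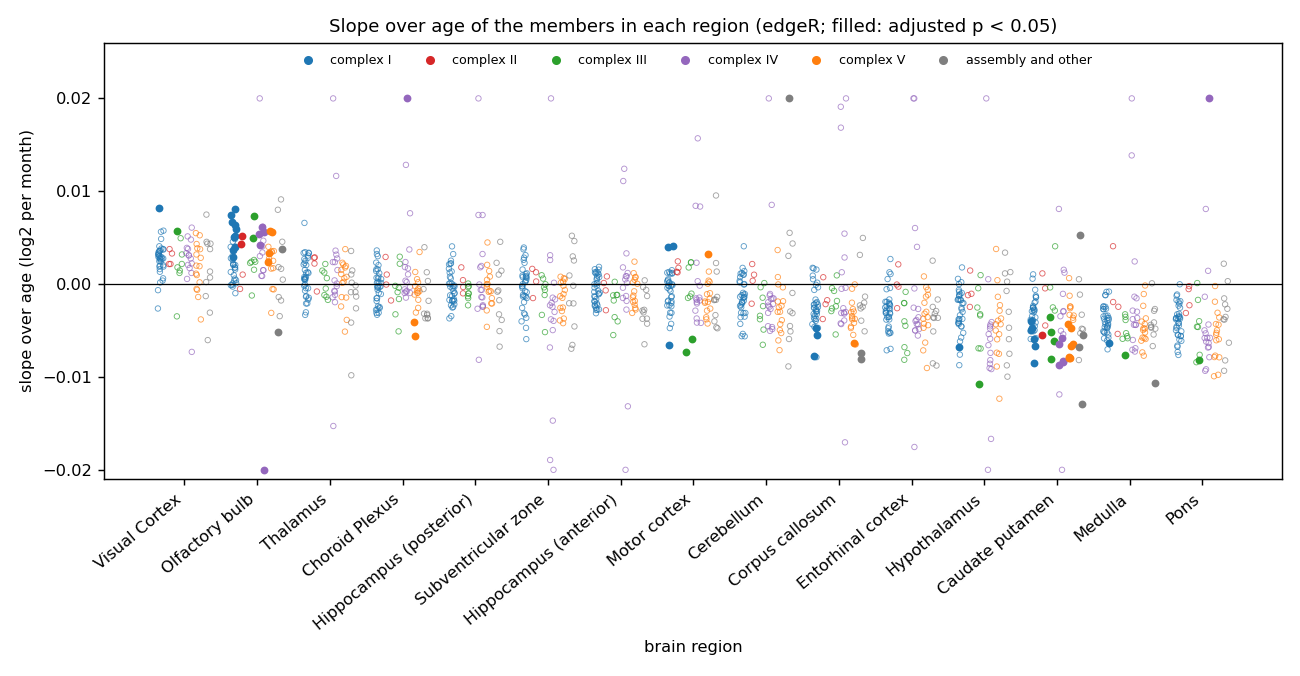
Slope over age of each member in each of 15 regions, as the change in log2 CPM per month (vertical axis, values beyond 0.02 drawn at the edge). Each point is 1 member, coloured by complex and filled where the edgeR adjusted p is below 0.05. Caudate putamen shows 26 called members below 0 and olfactory bulb 23 above it.

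The means of all 5 complexes sloped down in caudate putamen and up in olfactory bulb. The means are of log2 CPM and leave out the 7 tissue-restricted isoforms of complex IV, so that 11 genes stand for it. Complex IV had a slope of -0.0054 ± 0.0015 (SE) per month in caudate putamen, complex V -0.0043 ± 0.0011, complex I -0.0035 ± 0.0011, complex III -0.0031 ± 0.0011 and complex II -0.0024 ± 0.00086. In olfactory bulb the slopes of complexes I, II, III, IV and V were 0.0028 ± 0.00099, 0.0028 ± 0.00064, 0.0027 ± 0.0010, 0.0033 ± 0.0012 and 0.0023 ± 0.00093. With all members of complex IV its slope was -0.0053 in caudate putamen and 0.0011 in olfactory bulb. Differences between the complexes were not tested. In medulla the slopes ran from -0.0016 ± 0.0014 for complex II to -0.0056 ± 0.0022 for complex III. That of complex IV was -0.0057 ± 0.0033 in pons, -0.0060 ± 0.0030 in hypothalamus and 0.0022 ± 0.0024 in visual cortex. As a share of all counts, the members went from 1.93% at 3 months to 1.83% at 21 months and 1.91% at 28 months in caudate putamen, and from 1.91% to 1.98% at 21 months in olfactory bulb.

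**Figure D4:**
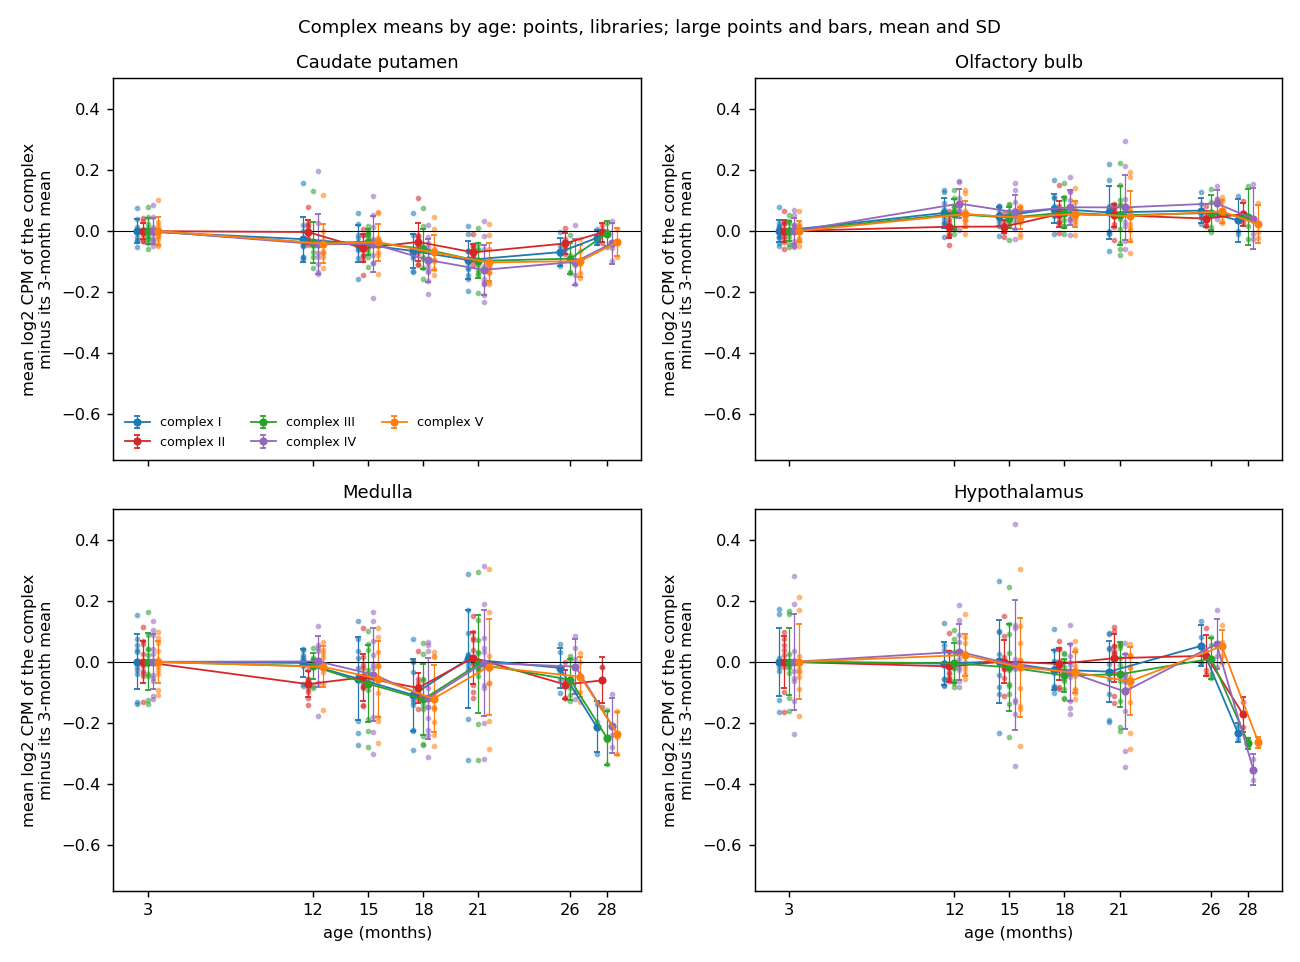
Mean log2 CPM of the members of each complex, less the mean of the 3-month libraries, by age in months in caudate putamen, olfactory bulb, medulla and hypothalamus. Small points are libraries, and large points with bars are the mean and SD of an age. Caudate putamen drifts down (complex IV slope -0.0054 per month), olfactory bulb up (0.0033), and medulla and hypothalamus drop at 28 months.

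In the other 13 regions few members passed, and apart from the faller of pons the counts were below the share of all genes. Pons had 1 faller of 92 (Uqcr11, 1.09%), where 0.743% of all genes fell, and 1 riser (Cox6a2), where 3.94% rose. Choroid plexus had 2 fallers of 92 (Atp5d and Atp5md), where 9.0% of all genes fell, and 1 riser (Cox8b), where 11.1% rose. Corpus callosum had 6 fallers of 92 (Ndufaf5, Ndufaf4, Ndufc1, Atp5md, Ndufs8 and Ndufs6), where 8.71% of all genes fell, and the calls of Ndufs6 and Ndufs8 were lost in 15 and 11 of 25 alternatives. Medulla had 3 of 91 (Ndufaf5 with -0.0106, Uqcrb with -0.0076 and Ndufs3 with -0.0064), where 3.95% fell, and the call of Uqcrb there was lost in 13 of 25. Motor cortex had 3 risers (Atp5a1, Ndufv1 and Ndufs7) and 3 fallers (Uqcrb, Ndufc1 and Uqcr11) of 91, where 8.0% of all genes rose and 8.65% fell. Hypothalamus had 2 fallers of 91 (Uqcrb with -0.0107 and Ndufb2 with -0.0068), where 3.0% fell, and visual cortex 2 risers of 90 (Ndufb4 and Uqcrc2), where 5.13% rose. Ndufa4l2 rose in cerebellum with a slope of 0.0209, from 1.06 to 3.43 CPM at 3 months to 2.83 to 3.27 at 28 months. It was the only riser of 92 there, where 9.45% of all genes rose, and its call was lost in 11 of 25 alternatives. No member was called in entorhinal cortex, anterior or posterior hippocampus, subventricular zone or thalamus by edgeR or by DESeq2, and at an unadjusted p below 0.05 edgeR gave 1, 2, 5, 4 and 4 members there. In entorhinal cortex 14 of 14519 genes were called in all. The genes that fell in the most regions were Ndufaf5, Uqcr11, Atp5md and Uqcrb, in 3 regions each, followed by Ndufc1, Atp5d, Ndufb2 and Ndufs3 in 2 each. Those that rose in the most were Ndufb4, Ndufv1, Cox7a2l, Ndufs7 and Atp5a1, in 2 each.

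Of the restricted isoforms, Cox8b and Cox6a2 rose with age in 1 region each. Cox8b rose in choroid plexus with a slope of 0.058 (SE 0.013, adjusted p = 0.00156), from 7.00 to 23.4 CPM at 3 months (14.0 ± 6.11) to 10.7 to 54.4 at 21 months (34.8 ± 16.2). At 26 months its mean was 20.8 and at 28 months its libraries read 18.4, 36.8 and 39.0, so that all later groups overlap the youngest. The summed choroid plexus markers stood at 4730, 7173, 4492 and 7090 CPM at 3, 21, 26 and 28 months, and their part was not tested. Cox6a2 rose in pons with a slope of 0.098 (SE 0.023, adjusted p = 0.00442), from a median of 0.220 CPM at 3 months to 0.945 at 21 months, where the highest library read 4.39. In thalamus, its region of highest level, Cox6a2 averaged 60.3 ± 15.5 CPM at 3 months and 57.9 at 21 months and did not pass.

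Set against 3 months age by age, the members were lower mainly at the oldest age. Of the 1370 pairs, 14 were higher and 0 lower at 12 months, where 0.678% of all gene and region pairs were higher and 0.668% lower. The counts were 4 and 1 at 15 months (all pairs 0.657% and 0.45%) and 13 and 6 at 18 months (1.54% and 0.921%). At 21 months 20 (1.46%) were higher and as many lower, below the 3.53% and 2.65% of all pairs. At 26 months 15 were higher and 23 (1.68%) lower, where all pairs gave 2.38% and 1.32%. At 28 months 6 were higher and 86 (6.28%) lower, where all pairs gave 3.3% and 2.47%. Most of the last were in medulla and hypothalamus. In cerebellum 14 members were lower at 26 months, where 2.74% of all genes were lower, among them Ndufa1, Cox7c and Atp5g3.

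In medulla at 28 months (3 males), 53 of 91 members were lower and 1 higher, where 12.0% of all genes were lower. The median log2 difference of the members was -0.26, against -0.03 for all genes tested. The lower genes were 22 of 36 of complex I, 1 of 4 of complex II, 7 of 8 of complex III, 5 of 16 of complex IV, 12 of 16 of complex V and 6 of 11 of the assembly group. Atp5d read 289 to 346 CPM in the 10 libraries at 3 months and 255, 259 and 262 at 28 months, below all of them (log2 difference -0.34, adjusted p = 0.00161). Ndufaf5 read 46.9 to 66.6 CPM at 3 months and 34.6, 40.0 and 46.0 at 28 months, again with no overlap (-0.47, SE 0.094, adjusted p = 0.000311). Cox5a read 483 to 587 and then 421, 464 and 508, which overlap. Ndufa5 (-0.43), Atp5md (-0.42) and Uqcrq (-0.37) were lower as well. The higher gene was Sdhd (0.30), at 101 to 158 CPM at 3 months and 137, 141 and 145 at 28 months, within the young range. The count rests on few mice, with 2 members lower without mouse 58, 34 without mouse 57 and 30 without mouse 59. The neuron markers summed to 12524 CPM at 3 months and 11971 at 28 months, oligodendrocyte markers to 22847 and 23152, and astrocyte markers to 1383 and 1530, and their part was not tested.

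In hypothalamus at 28 months (2 males), 23 members were lower by edgeR (30 by DESeq2, and 65 at an unadjusted p below 0.05 by edgeR) and none higher by either, where 1.89% of all genes were lower. These were 8 of complex I, none of complex II, 3 of complex III, 6 of complex IV, 3 of complex V and 3 of the assembly group. Atp5d read 215 to 245 CPM at 3 months and 182 and 183 at 28 months, below all young libraries (log2 difference -0.39, adjusted p = 0.00347). Cox5a read 266 to 362 CPM and then 208 and 249 (-0.53, adjusted p = 0.0161), also with no overlap. Uqcr11 read 107 to 151 CPM and then 99.5 and 113 (-0.41, adjusted p = 0.00292), with overlap. Without mouse 57, or without mouse 58, 1 member was lower (the lone old library is then assumed to vary like the other groups), without mouse 17 (a 3-month library) 39 were, and with males alone 4 were. Marker sums differed there as well, with neuron markers at 4625 CPM at 3 months and 3415 at 28 months, oligodendrocyte markers at 6528 and 5017, and the mitochondrially encoded genes at 25169 and 20751. The part of these in the result was not tested.

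Whether slopes differ between regions was tested in a single model over all libraries with mouse as a block. The slope differed between regions for 6 of 92 members (limma-voom F test, adjusted p below 0.05), where 13.3% of all genes differed. Among them were Cox6a2 (adjusted p = 1.56e-10), Cox7a2l (0.000593), Uqcrb (0.00381), Atp5g3 (0.0108) and Ndufs3 (0.0331). Against the other regions, the slope of Cox6a2 was higher in pons (0.105) and medulla (0.095) and lower in entorhinal cortex (-0.035) and subventricular zone (-0.046). Cox7a2l was lower in medulla (-0.0080), where it read 176 to 240 CPM at 3 months and 169 to 179 at 28 months. In olfactory bulb the slopes of Uqcrb (0.0093) and Ndufs1 (0.0068) were higher than in the other regions, and no member was called in caudate putamen. At an unadjusted p below 0.05, 37 of 92 members differed in olfactory bulb, where 2118 of all 15069 genes did. In caudate putamen 12 of 92 did, near the share of all genes there (1779 of 15069). Without mouse 2 the F test called 11 members, and with males alone 2.

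The last comparison asked whether levels differ between the sexes, over the ages that hold both. Of 1363 pairs of a member and a region 27 (1.98%) were higher in males and 7 (0.514%) lower, where 1.24% of all gene and region pairs were higher and 1.47% lower. Most lay in medulla, where 20 of 91 members were higher in males and 3 lower. Of all genes there, 9.18% were higher in males and 13.3% lower. The median log2 difference of the members was 0.05. Ndufa5 (log2 difference 0.18), Ndufb9 (0.17) and Ndufa10 (0.17, adjusted p = 0.000651) were the most different, and Sdhd (-0.16), Atp5e (-0.14) and Atp5g2 (-0.12) were lower. In hypothalamus 4 (4.44%) were higher in males (Ndufb1-ps, Atp5e, Ndufa1 and Ndufa6), near the 3.01% of all genes. Ndufa4 was the member called higher in males in the most regions, medulla (0.12) and motor cortex (0.09). Cox6a2 was lower in males in cerebellum by a log2 difference of -0.68 (adjusted p = 0.00702). Uqcrb was lower in males in caudate putamen (-0.16) and higher in medulla (0.11), and Atp5d was lower in posterior hippocampus (-0.11). Without mouse 19 the medulla count was 13, and with 12-month mice alone it was 0 (13 at an unadjusted p below 0.05), with the median log2 difference turned to -0.07. Only at 12 months do the mouse numbers of males and females alternate. At the other ages with both sexes, all males have lower mouse numbers than all females. Sex and range of mouse numbers therefore cannot be told apart at those ages.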

How the data were processed

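RNA was extracted with RNeasy kits and made into unstranded Smart-Seq2 and Nextera XT libraries, per the labels' protocols. The authors deposited raw read counts per gene for every library. The submitters' processing notes name Trim Galore 0.3.7, STAR 2.5.3a, DESeq2 and GRCm38, and the counting program, its annotation and filters are not given in the sources used here. Totals ran from 481444 to 26756735 counts, which limits the genes of few reads most.

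Groups came from the labels, and the mouse number marks the same animal in every region. The members and gene lists were chosen with earlier results of these data known. Within each region, edgeR 4.0.16 (R 4.3.3) was run on the counts with TMM scaling, filterByExpr (smallest count 10) on sex and age, and quasi-likelihood tests of age as a slope, of each age against 3 months, and of sex. Levels at 3 months were fitted with mouse as a block. Slopes between regions were fitted with limma-voom (limma 3.58.1) with mouse as a block, since a mouse gave all its regions. P-values were adjusted by Benjamini-Hochberg over all genes tested, with 0.05 as threshold. CPM are counts per 1e6 counts of a library's total. Complex means use log2 CPM with a prior count of 2.

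Named genes follow a rule. For age, they are the 10 members that rose, and the 10 that fell, in the most regions, and the 5 steepest risers and fallers of caudate putamen and olfactory bulb (the regions with the most calls) at a mean of at least 5 CPM. For levels, they are the 3 members of each complex with the widest range, and the isoform pairs. Named too are the 10 smallest F-test p-values (those past the threshold are printed), the 5 members called between the sexes in the most regions, and all of complex II. The members listed for single regions and ages, those that moved oppositely in caudate putamen and olfactory bulb, and the further members named at 28 months and between the sexes in medulla and hypothalamus were chosen after their values were seen. Each gene's promoter came from RefSeq (GRCm38.p6) and its position from GENCODE M21. The values of 1 member are not reported here by name, and it is included in all counts. The scripts were tested on simulated data.

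Alternatives were RLE scaling, no filter, DESeq2 1.42.0, males alone, mice 16 to 56 alone, deep libraries alone and no replicate block. The mice outside 16 to 56 are those of 12, 26 and 28 months, so these ages go with separate ranges of mouse numbers. Covariates for depth, choroid plexus markers and ribosomal proteins were tried as well. Some mice were also left out in turn, 14 of 59 for age and 10 for levels. An alternative without the 17 libraries closest to another region was chosen after seeing the data. Another left out the entorhinal library of mouse 52. It changes no other region, so its outcome elsewhere was fixed in advance.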

Additional observations from a re-analysis of the deposited data

Results flagged for a closer look

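A mouse's share of counts on the members was compared within each region and age of 4 to 10 libraries, and 6 of 77 groups held a highest library far from the others, where chance gives about 1 in 20 groups. At 12 months these were female mouse 1 in caudate putamen (2.14%, others 1.84% to 1.98%) and in pons (3.60%, others 2.51% to 2.69%), female mouse 7 in cerebellum (2.29%, others 1.97% to 2.10%) and female mouse 10 in posterior hippocampus (2.25%, others 1.70% to 1.95%). At 15 months it was female mouse 50 in anterior hippocampus (1.93%, others 1.70% to 1.81%). At 18 months it was male mouse 23 in cerebellum (2.64%, others 1.88% to 2.17%), a library of 1151125 counts.

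The slopes over age of 5 members given here differed between regions in the limma-voom F test over all libraries, with adjusted p of 1.56e-10 for Cox6a2, 0.000593 for Cox7a2l, 0.00381 for Uqcrb, 0.0108 for Atp5g3 and 0.0331 for Ndufs3.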

How the results depend on the processing

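Counts and complex slopes stayed close to their value in 332 recomputations and moved in 33, and single genes stayed on their side of the threshold in 3445, lost a call in 257 and gained one in 4. No direction reversed in any of these, which hold no single genes between the sexes, but the members' median log2 difference between the sexes in medulla turned from 0.05 to -0.07 in 12-month mice. The 3445 include cases in which an alternative left the fit of a region unchanged, so that its calls could not move. Pairs rising with age were 32, 12 with males alone and 15 with the ribosomal protein genes as covariate. Pairs falling were 45, and under these settings 11 and 125, with 28 in mice 16 to 56. Members falling in caudate putamen (26) were 7 with males alone, 45 with the ribosomal covariate and 17 without the libraries closest to another region, an alternative chosen after seeing the data. Members rising in olfactory bulb (23) were 8 with males alone and 9 with the ribosomal covariate. With males alone, pairs above 3 months were 25 (72), those below 71 (136), members lower in hypothalamus at 28 months 4 (23) and members whose slope differed between regions 2 (6). Pairs higher in males (27) were 17 with no filter and 0 in 12-month mice, pairs lower (7) were 2 in mice 16 to 56 and 0 in 12-month mice, and the medulla count (20) was 0 in 12-month mice. With the median over members, the complex III slope was -0.0044 in caudate putamen and 0.0045 in olfactory bulb, and with all members the complex IV slope was 0.0011 in olfactory bulb. The cause of these moves was not tested, apart from the fewer samples of the subsets.

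For age, 14 of the 59 mice were left out in turn, the first of each sex and age and all of 28 months. The sexes were refitted without those of them at ages with both sexes. The ranges given here do not cover the other mice. Pairs below 3 months ran from 55 (without mouse 58) to 172, with 85 without mouse 57. Medulla at 28 months ran from 2 to 58 and hypothalamus from 1 to 39. The F test called 4 to 11 members (11 without mouse 2), pairs lower in males were 6 to 12 (12 without mouse 37), and members higher in males in medulla were 13 to 25. A mouse gave all of its regions, which pairs libraries across regions. Without the replicate block, 376 pairs of a member and a region were above the other regions and 558 below at 3 months (373 and 560 with it), and edgeR with no replicate block called 8 slopes between regions (limma-voom with the block called 6, so tool and block changed together). Within a region, no paired analysis was possible because ages and sexes are different mice.

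Depth limits the members of few reads, such as Cox6a2 in pons and medulla, where libraries are at 0.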
